A study of Homo sapiens with 9 samples.

Results

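The beta-catenin gene CTNNB1 and 9 genes known as targets of Wnt signalling, AXIN2, LGR5, GLUL, TBX3, NKD1, RNF43, ZNRF3, CCND1 and MYC, were followed across 3 groups of cultured hepatoma cells. The 10 genes were chosen by name, with earlier results of these data known. They were read from the 11 probe sets annotated to one of them alone, of 33297 probe sets in the table (10 of 18417 genes). Cells labelled Hep3B, an established human hepatocellular carcinoma line, had been transfected with a YAP-specific siRNA (3 arrays), transfected with a nonsense siRNA (3 arrays) or left untreated (3 arrays). The transfected cells were grown for 24 h, transfected with Oligofectamine and kept for a further 24 h before total RNA was taken, and the labels name no other agent and no genetic change. Titles start with HUH although the samples are described as Hep3B, and the labels do not say whether the 3 samples of a group were separate cultures, so the p-values measure the spread between these samples.

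In canonical Wnt signalling a complex of AXIN, APC and kinases marks beta-catenin for destruction. Wnt ligands bound to Frizzled and LRP receptors stop that complex, so that beta-catenin builds up, enters the nucleus and activates genes with TCF/LEF factors. In liver the pathway is known for the gene programme of hepatocytes around the central vein, and it is often activated by mutation in hepatocellular carcinoma. YAP, encoded by YAP1, is the coactivator held back by the Hippo kinases, and work elsewhere has linked it to beta-catenin and its destruction complex.

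Values were log2 array signals, and precision is limited by there being 3 arrays a group. Array medians over genes differed by at most 0.05. YAP1 measured 7.54, 7.52 and 7.48 on the YAP siRNA arrays, against 8.66, 8.75 and 8.68 on the nonsense siRNA arrays and 8.78, 8.62 and 8.69 on the untreated arrays. YAP1 thus fell by 1.18 against nonsense siRNA, to 44.0% of that level (adjusted p = 4.34e-09), and the difference from untreated cells was -1.19 (adjusted p = 6.34e-09). The first principal component over genes held 35.3% of the variance. On it each nonsense siRNA array lay below each untreated array, and the YAP siRNA arrays overlapped both groups. Nonsense siRNA replicate 2 lay at 1.59 and the other nonsense siRNA arrays at -10.4 and -12.4, with the untreated arrays between 3.64 and 9.41. YAP siRNA replicate 3 lay at 8.87 and the other YAP siRNA arrays at -2.84 and -3.96. All 11 measured hepatocyte markers (of 12 listed) had a mean signal above the median of 7.31 over genes, as did 2 of 7 fibroblast or stellate, 0 of 5 endothelial and 1 of 5 leukocyte markers.

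After YAP siRNA, CCND1 fell and RNF43 rose against nonsense siRNA, and the other 8 genes, CTNNB1 among them, did not pass the test. The changes that passed were small, to 84.3% of the nonsense siRNA level for CCND1 and to 1.17-fold for RNF43. By limma 0 of the 10 genes passed against untreated cells, with 2 at an unadjusted p under 0.05, and 0 passed between nonsense siRNA and untreated cells, with 3. In the latter comparison 4645 of all 33297 probe sets were at an unadjusted p under 0.05. That count is from a separate fit over probe sets, 12083 of them with no listed gene, so it is an unlike background for genes. No such share was taken for the YAP siRNA comparisons, so unadjusted counts there have no background beside them. The threshold was an adjusted p of 0.05 in limma's test over all 18417 genes. With it 4.53% of all genes passed for YAP siRNA against nonsense siRNA (2.61% lower and 1.92% higher), 3.09% for YAP siRNA against untreated cells (1.46% lower and 1.63% higher) and 0.614% for nonsense siRNA against untreated cells (0.277% lower and 0.337% higher). In the same direction against both controls 0 of the 10 genes passed, and 1.80% of all genes did. An exact permutation test of 3 arrays against 3 cannot give a p below 0.1, so single genes rest on limma's test. With YAP siRNA replicate 3, nonsense siRNA replicate 2 and untreated replicate 3 all dropped, CCND1 (-0.24, adjusted p = 0.0277) and RNF43 (0.22, adjusted p = 0.0498) passed against nonsense siRNA, and NKD1 passed for nonsense siRNA against untreated cells (-0.25, adjusted p = 0.0205). Without these 3 arrays 1287 of all genes passed against nonsense siRNA (834 with all arrays). For nonsense siRNA against untreated cells 2319 did (113 with all arrays). The 3 arrays were named by hand and not by a rule, so the calls without them are not separate support. The plot of the 10 genes by array shows these levels.

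**Figure D1:**
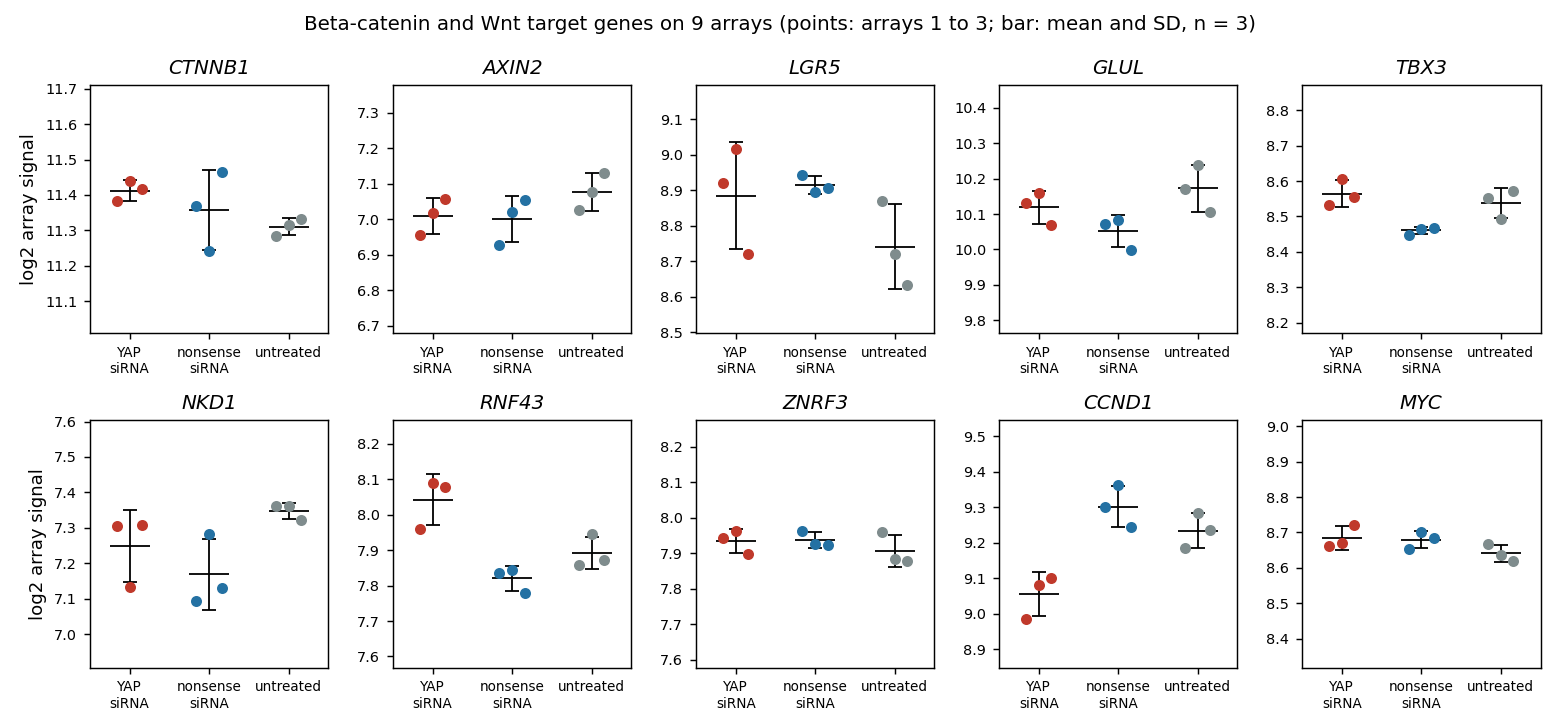
Log2 array signal (vertical axes, all of the same span) of the 10 genes on the YAP siRNA, nonsense siRNA and untreated arrays; points are arrays 1 to 3 of a group from left to right, and bars give the mean and SD (n = 3). The CCND1 points after YAP siRNA (8.99 to 9.10) lie below the 6 control points and the RNF43 points (7.96 to 8.09) above them.

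CCND1 encodes cyclin D1, which with CDK4 and CDK6 drives cells from G1 into S phase. It measured 8.99, 9.08 and 9.10 on the YAP siRNA arrays, against 9.30, 9.36 and 9.24 after nonsense siRNA and 9.18, 9.28 and 9.23 in untreated cells. Each YAP siRNA array thus lay below each of the 6 control arrays, as it did for 3.61% of all genes. CCND1 fell by 0.25 against nonsense siRNA (SE 0.0554, 95% interval -0.36 to -0.13, adjusted p = 0.0167). Against untreated cells the difference was -0.18 (95% interval -0.30 to -0.06, adjusted p = 0.110), and it did not pass. The 2 control groups differed by 0.07 (nonsense siRNA minus untreated, adjusted p = 0.492). Against nonsense siRNA the adjusted p was 0.0979 when YAP siRNA replicate 1 was dropped, 0.0720 when nonsense siRNA replicate 1 was, 0.0581 with quantile normalization and 0.0649 with all probe sets tested. With array weights CCND1 was at -0.22 against untreated cells (adjusted p = 0.0101) and passed. That setting raised the genes passing there from 569 to 1759 of 18417, so the call is not separate support.

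RNF43 encodes a membrane E3 ubiquitin ligase that removes Frizzled receptors from the cell surface and so dampens Wnt signalling. RefSeq (GRCh38.p14) lists 2 transcription start windows for it, shown because RNF43 was the gene of the 10 that rose; both are the 250 bases before a start, written in the direction of the gene, and capitals mark each match to the TEAD motif CATTCC.
RNF43 promoter window A, chr17:58417535-58417784, minus strand: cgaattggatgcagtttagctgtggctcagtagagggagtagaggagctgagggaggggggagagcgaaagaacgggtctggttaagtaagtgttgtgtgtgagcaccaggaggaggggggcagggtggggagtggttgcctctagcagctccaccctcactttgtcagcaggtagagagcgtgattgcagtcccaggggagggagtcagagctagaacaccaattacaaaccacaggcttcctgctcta
RNF43 promoter window B, chr17:58402722-58402971, minus strand: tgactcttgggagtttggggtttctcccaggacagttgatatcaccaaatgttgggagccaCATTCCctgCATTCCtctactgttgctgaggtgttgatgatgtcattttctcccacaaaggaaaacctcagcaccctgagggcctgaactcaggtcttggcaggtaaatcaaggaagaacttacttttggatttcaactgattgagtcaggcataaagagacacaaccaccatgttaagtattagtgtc
Window B held CATTCC from -189 to -184 and from -180 to -175 relative to its start. CATTCC or its reverse complement was found in 11.9% of 34943 such windows of all genes, and at least 2 matches in 0.942%. These shares are for 1 motif and 1 window. In all 4 motifs were searched in 5 windows and RNF43 was shown for its result, so they do not say how rare the pair is. On the minus strand window B lies downstream of window A. Of TCF/LEF motifs, searched on both strands, neither window held CTTTGAT (in 2.27% of all windows), CTTTGTT (in 4.51%) or CTTTGTA (in 2.35%). The same 4 motifs were in none of the 2 GLUL windows and the 1 CTNNB1 window that were read. No window was read for the rest of the 10 genes, CCND1 among them, so their motifs were not compared. The arrays did not measure which start was used, and binding was not measured.

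RNF43 measured 7.96, 8.09 and 8.08 after YAP siRNA, against 7.84, 7.84 and 7.78 after nonsense siRNA and 7.86, 7.94 and 7.87 in untreated cells. Each YAP siRNA array lay above each control array, as it did for 4.29% of all genes, although the margin over the highest untreated array was narrow. RNF43 rose by 0.22 against nonsense siRNA (SE 0.0544, 95% interval 0.11 to 0.34, adjusted p = 0.0272). Against untreated cells the difference was 0.15 (95% interval 0.03 to 0.27, adjusted p = 0.178), and between nonsense siRNA and untreated cells it was -0.07 (adjusted p = 0.462). RNF43 no longer passed against nonsense siRNA when YAP siRNA replicate 2 (adjusted p = 0.123) or 3 (0.0961) or nonsense siRNA replicate 1 (0.0910) or 3 (0.123) was dropped, and with all probe sets tested (0.0800).

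**Figure D2:**
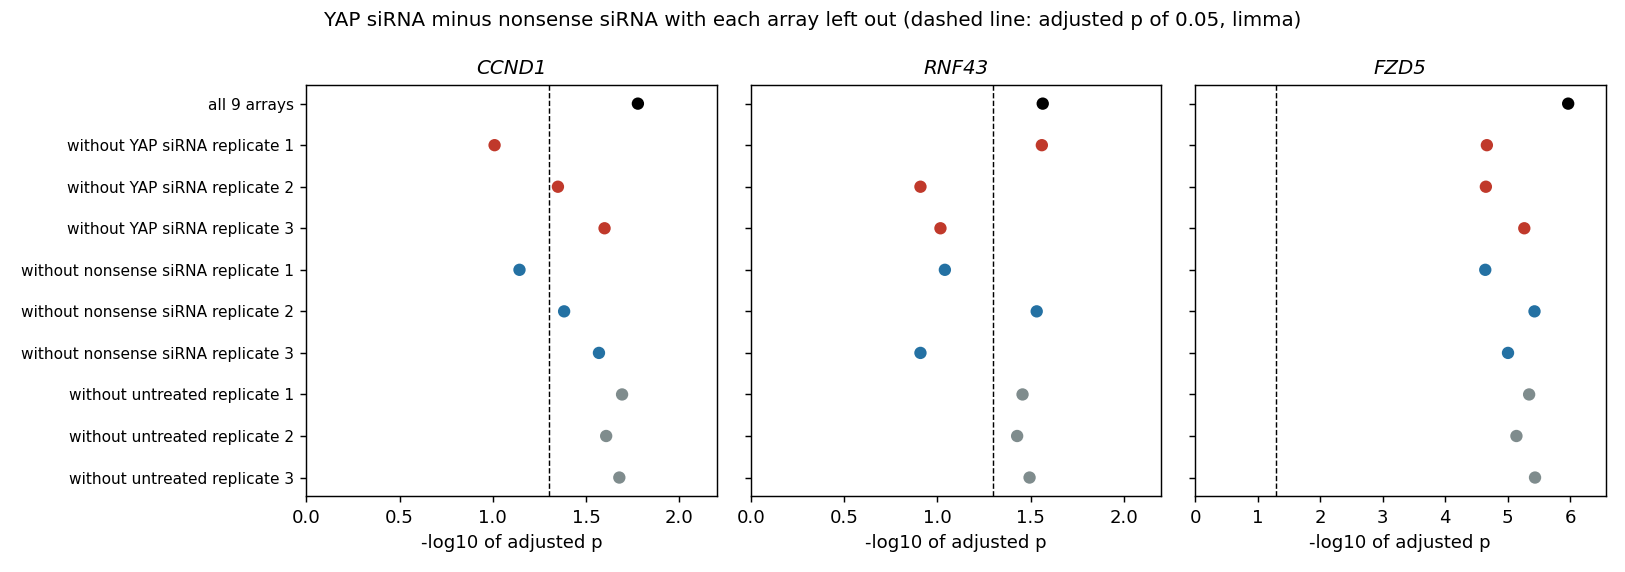
Adjusted p of CCND1, RNF43 and the Frizzled receptor gene FZD5 for YAP siRNA minus nonsense siRNA (horizontal axes, -log10, with a dashed line at 0.05), with all 9 arrays (black) and with each array left out in turn (red, YAP siRNA; blue, nonsense siRNA; grey, untreated). CCND1 drops below the line in 2 of 9 fits, RNF43 in 4 of 9 and FZD5 in 0 of 9.

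ZNRF3 encodes the paralog of RNF43, with the same role at the receptors. It measured 7.94, 7.96 and 7.90 after YAP siRNA, against 7.96, 7.93 and 7.92 after nonsense siRNA and 7.96, 7.88 and 7.88 in untreated cells. The groups overlapped, and YAP siRNA differed from nonsense siRNA by -0.003 (95% interval -0.11 to 0.10, adjusted p = 0.991). The difference between RNF43 and ZNRF3 in response was not tested.

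CTNNB1, the gene of beta-catenin itself, measured 11.38, 11.44 and 11.42 after YAP siRNA, against 11.37, 11.24 and 11.46 after nonsense siRNA and 11.28, 11.32 and 11.33 in untreated cells. The nonsense siRNA arrays spread over both other groups, with replicate 2 the lowest of the 9 arrays and replicate 3 the highest. YAP siRNA minus nonsense siRNA was 0.05 (SE 0.0587, 95% interval -0.07 to 0.18, adjusted p = 0.763). The YAP siRNA arrays lay above the untreated ones without overlap, at a difference of 0.10 (95% interval -0.02 to 0.23, adjusted p = 0.427). Beta-catenin is controlled largely by protein stability and location, and neither was measured.

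The genes with the pattern most like CTNNB1 over the 9 arrays were CAPZA1, an actin capping protein gene (Pearson's r = 0.988), SNRNP40 (0.945), BPNT1 (0.938), EFEMP1 (0.937) and SELENOF (0.934), among the 9209 genes at or above the median signal. For AXIN2 they were MAP1LC3B, an autophagy gene (r = 0.945), PPP1R3B (0.924), TMBIM1 (0.910), BAX (0.902) and IER2 (0.898). These are descriptions over 9 arrays in 3 groups, which share the arrays' common variation.

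AXIN2 and NKD1 encode feedback inhibitors that Wnt signalling itself induces, AXIN2 as a scaffold of the destruction complex and NKD1 as a binder of Dishevelled. AXIN2 measured 6.95, 7.02 and 7.06 after YAP siRNA, against 6.93, 7.02 and 7.05 after nonsense siRNA and 7.02, 7.08 and 7.13 in untreated cells. All 3 groups overlapped, and YAP siRNA minus nonsense siRNA was 0.01 (95% interval -0.11 to 0.13, adjusted p = 0.973). Against untreated cells AXIN2 differed by -0.07 (95% interval -0.19 to 0.05, adjusted p = 0.590).

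NKD1 measured 7.30, 7.13 and 7.31 after YAP siRNA, against 7.09, 7.28 and 7.13 after nonsense siRNA and 7.36, 7.36 and 7.32 in untreated cells. Both siRNA groups lay below the untreated arrays without overlap. The differences did not pass, at -0.18 for nonsense siRNA against untreated cells (adjusted p = 0.160), -0.10 for YAP siRNA against untreated cells (adjusted p = 0.480) and 0.08 between the siRNA groups (95% interval -0.06 to 0.21, adjusted p = 0.648). Without nonsense siRNA replicate 2 NKD1 passed in nonsense siRNA against untreated cells (-0.24, adjusted p = 0.0356), and it passed there with array weights (0.0153). Of all 18417 genes 1470 passed there without that array and 2620 with array weights, against 113 with the settings as reported. The mean signals of AXIN2 (7.03) and NKD1 (7.25) lay under the median of 7.31 over genes, and the table holds no detection call.

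LGR5, GLUL and TBX3 belong to the pericentral programme of liver. LGR5 encodes a receptor for R-spondins, which strengthen Wnt signals. It measured 8.92, 9.02 and 8.72 after YAP siRNA, against 8.94, 8.90 and 8.91 after nonsense siRNA and 8.87, 8.72 and 8.63 in untreated cells. The YAP siRNA arrays covered nearly the whole range of the 9, with replicate 3 at the level of untreated cells. LGR5 differed by -0.03 between YAP siRNA and nonsense siRNA (95% interval -0.19 to 0.13, adjusted p = 0.915), by 0.14 between YAP siRNA and untreated cells (adjusted p = 0.366) and by 0.18 between nonsense siRNA and untreated cells (95% interval 0.02 to 0.33, adjusted p = 0.218). The last passed with array weights (adjusted p = 0.0494), as did 2620 of all 18417 genes, against 113 without weights.

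GLUL encodes glutamine synthetase, which joins ammonia and glutamate around the central vein. The brighter of its 2 probe sets measured 10.13, 10.16 and 10.07 after YAP siRNA, against 10.07, 10.08 and 9.9996 after nonsense siRNA and 10.17, 10.24 and 10.11 in untreated cells. The other measured 9.88, 9.90 and 9.95 after YAP siRNA, against 9.78, 9.88 and 9.87 after nonsense siRNA and 9.96, 9.83 and 9.87 in untreated cells. The 2 probe sets gave 0.07 and 0.07 for YAP siRNA minus nonsense siRNA (adjusted p = 0.650 for the brighter). For nonsense siRNA minus untreated the brighter gave -0.12 (adjusted p = 0.241) and the other -0.05, and for YAP siRNA minus untreated they differed in sign, at -0.05 and 0.02.

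TBX3 encodes a T-box transcription repressor and a known target of beta-catenin in liver tumours. It measured 8.53, 8.61 and 8.55 after YAP siRNA, against 8.45, 8.46 and 8.47 after nonsense siRNA and 8.55, 8.49 and 8.57 in untreated cells. The nonsense siRNA arrays were the lowest and overlapped neither other group, but YAP siRNA minus nonsense siRNA did not pass, at 0.10 (95% interval -0.003 to 0.21, adjusted p = 0.335). YAP siRNA and untreated cells overlapped and differed by 0.03 (adjusted p = 0.849).

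MYC encodes the growth-promoting transcription factor c-Myc. It measured 8.66, 8.67 and 8.72 after YAP siRNA, against 8.65, 8.70 and 8.68 after nonsense siRNA and 8.67, 8.64 and 8.62 in untreated cells. The 9 arrays lay close together, and YAP siRNA differed from nonsense siRNA by 0.00 (SE 0.0492, 95% interval -0.10 to 0.11, adjusted p = 0.986) and from untreated cells by 0.04 (adjusted p = 0.717).

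Across the 8 genes that did not pass against nonsense siRNA, the differences ran from -0.03 to 0.10 and the 95% intervals from -0.19 to 0.21, so intervals reached no change beyond 1.16-fold. Against untreated cells the intervals of the 10 genes ran from -0.30 to 0.30. The median difference over the 10 genes was 0.03 for YAP siRNA against nonsense siRNA, where the median over all genes was 0.01, and 0.03 against untreated cells, where it was -0.01. Groups did not overlap for 3 of the 10 genes in YAP siRNA against nonsense siRNA (TBX3, RNF43 and CCND1), as for 20.2% of all genes. They did not overlap for 4 in YAP siRNA against untreated cells (20.5% of all genes) and for 5 in nonsense siRNA against untreated cells (22.7%). The 2 YAP siRNA comparisons share the YAP siRNA arrays, and each control group enters 2 of the 3 comparisons.

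**Figure D3:**
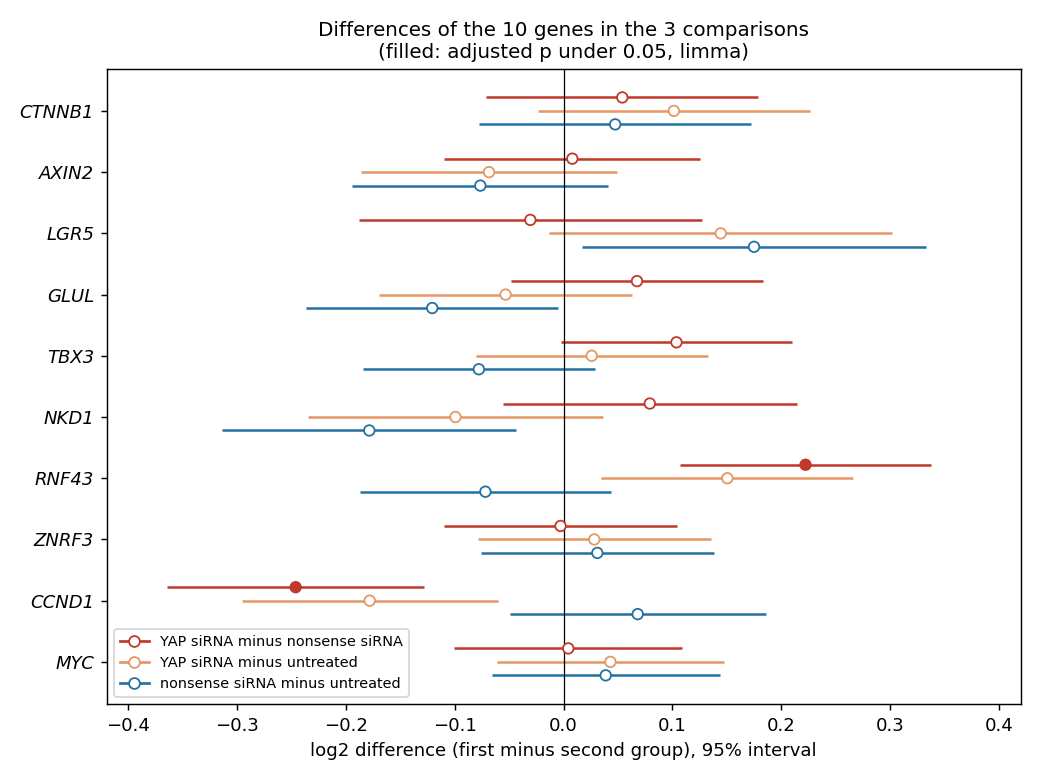
Log2 differences (horizontal axis, first minus second group, with 95% intervals) of the 10 genes for YAP siRNA minus nonsense siRNA (red), YAP siRNA minus untreated (orange) and nonsense siRNA minus untreated (blue); filled points had an adjusted p under 0.05. CCND1 at -0.25 and RNF43 at 0.22, both for YAP siRNA minus nonsense siRNA, are the filled points.

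Further genes of the Wnt pathway, of liver zonation and of cadherin and catenin adhesion were read from 9 lists. These held 160 genes besides the members, 150 of them measured on a probe set of 1 gene. For YAP siRNA against nonsense siRNA 5 of the 150 fell and 2 rose (4.67%, beside 4.53% of all genes). The 2 that rose were ASL of the periportal list and CDH17 of the adhesion list. For YAP siRNA against untreated cells 3 fell and 2 rose (3.33%, beside 3.09%). For nonsense siRNA against untreated cells 0 passed by limma, with 21 at an unadjusted p under 0.05. Over the whole array 4645 of 33297 probe sets were, in the separate fit over probe sets, an unlike background. The genes that rose against untreated cells were CPS1 and CDH17, of the same 2 lists, and no gene of the Wnt lists passed as higher. The shares over these 9 lists were thus close to those of all genes in both YAP siRNA comparisons. The lists were chosen with earlier results of these data known, so the shares are not an independent reading.

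Among 17 receptor genes FZD5, which encodes a Frizzled receptor for Wnt ligands, fell in both YAP siRNA comparisons and was the 1 receptor gene to pass. It measured 9.73, 9.69 and 9.77 after YAP siRNA, against 10.39, 10.41 and 10.38 after nonsense siRNA and 10.23, 10.23 and 10.23 in untreated cells. The 3 groups did not overlap, with untreated cells between the others. FZD5 fell by 0.67 against nonsense siRNA, to 63.0% of that level (SE 0.0488, 95% interval -0.77 to -0.56, adjusted p = 1.07e-06), and fell by 0.50 against untreated cells (adjusted p = 4.81e-05). Nonsense siRNA minus untreated was 0.17 (adjusted p = 0.113). Without the same 3 arrays FZD5 was at -0.68 against nonsense siRNA (adjusted p = 4.41e-06). The co-receptor gene LRP6 did not pass, at -0.08 against nonsense siRNA (adjusted p = 0.539). Of 23 measured genes for Wnt ligands, R-spondins and their secretion 0 passed by limma for YAP siRNA against nonsense siRNA. At an unadjusted p under 0.05 there were 2, with no share over all genes beside them.

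In the destruction complex and Dishevelled list 1 of 19 passed against nonsense siRNA. GSK3A, which encodes a kinase that phosphorylates beta-catenin, fell by 0.21 (adjusted p = 0.0457) and fell by 0.25 against untreated cells (adjusted p = 0.0265). Of the 9 fits that each dropped 1 array, 7 did not call it against nonsense siRNA (adjusted p up to 0.156, without YAP siRNA replicate 3) and 4 did not against untreated cells (up to 0.128, without untreated replicate 1). Its paralog GSK3B (-0.02, adjusted p = 0.948), the scaffold gene AXIN1 (0.04, 0.875) and the scaffold gene APC (-0.03, 0.899) did not pass.

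Of 18 TCF/LEF factors and nuclear partners, TLE1, which encodes a Groucho-type corepressor, fell by 0.21 against nonsense siRNA (adjusted p = 0.0269) and did not pass against untreated cells (-0.13, adjusted p = 0.214). Against nonsense siRNA 4 of the 9 fits that dropped 1 array did not call it (adjusted p up to 0.156, without nonsense siRNA replicate 1). The TCF factor gene TCF7L2 (-0.13, adjusted p = 0.331) and LEF1 (0.05, 0.781), with a mean signal under the median over genes, did not pass. With array weights TCF7L2 passed against nonsense siRNA (-0.15, adjusted p = 0.0483) and TLE1 against untreated cells (-0.15, adjusted p = 0.0482). Array weights raised the genes passing from 834 to 2404 in the first comparison and from 569 to 1759 in the second. Of 14 secreted inhibitors 0 passed by limma, with 1 at an unadjusted p under 0.05 and no share over all genes beside it. The 1 was the LRP6 antagonist gene DKK1, at -0.21 (adjusted p = 0.211). DKK1 passed without nonsense siRNA replicate 2 (-0.32, adjusted p = 0.0150) and with array weights (-0.22, adjusted p = 0.0231). Of all genes 1231 passed without that array and 2404 with array weights, against 834 with the settings as reported. NOTUM, which encodes an enzyme that inactivates Wnt ligands, was at -0.02 (adjusted p = 0.959).

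Among 28 other Wnt target genes ID2, which encodes a dominant-negative helix-loop-helix factor, fell by 0.34 against nonsense siRNA (adjusted p = 0.0326) and did not pass against untreated cells (-0.18, adjusted p = 0.338). Dropping 1 array ended that call in 4 of 9 fits, and testing all probe sets gave an adjusted p of 0.206. It measured 8.45, 8.25 and 8.25 after YAP siRNA, against 8.79, 8.44 and 8.75 after nonsense siRNA and 8.52, 8.38 and 8.58 in untreated cells. YAP siRNA replicate 1 lay just above nonsense siRNA replicate 2, so these groups overlapped. BMP4, a growth factor gene of the TGF-beta superfamily, fell by 0.21 against untreated cells (adjusted p = 0.0472) and was at -0.18 against nonsense siRNA (adjusted p = 0.0850). The call against untreated cells did not hold in 7 of the 9 fits that dropped 1 array (adjusted p up to 0.199, without YAP siRNA replicate 1). SP5, a feedback repressor gene, did not pass at 0.05 (adjusted p = 0.860). LEF1, NOTUM, DKK1 and DKK4 stand in this list and in one of the lists above.

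The liver zonation genes come from 2 lists. Of 17 measured pericentral genes, which include AXIN2, GLUL, TBX3 and LGR5, 0 passed by limma in any of the 3 comparisons. At an unadjusted p under 0.05 there were 0 for YAP siRNA against nonsense siRNA and 3 for YAP siRNA against untreated cells. No share over all genes was taken for these, so the counts cannot be read as high or low. For nonsense siRNA against untreated cells there were 5, beside 4645 of 33297 probe sets in the separate fit over probe sets, an unlike background. The pericentral cytochrome gene CYP2E1 was at 0.12 (adjusted p = 0.423). Of 11 periportal genes, ASL, a urea cycle enzyme gene, rose by 0.20 against nonsense siRNA (adjusted p = 0.0340) and CPS1, the first enzyme gene of that cycle, rose by 0.23 against untreated cells (adjusted p = 0.0365). In the other YAP siRNA comparison neither passed, with ASL at 0.08 against untreated cells (adjusted p = 0.463) and CPS1 at 0.19 against nonsense siRNA (adjusted p = 0.0886). The mean signal of CPS1 (6.80) lay under the median over genes. ASL did not pass in 7 of the 9 fits that dropped 1 array (adjusted p up to 0.126, without YAP siRNA replicate 3) and CPS1 in 6 (up to 0.180, without YAP siRNA replicate 2). Beside them the hepatocyte markers held 1 higher (AHSG, 0.29) and 1 lower gene (FGA, -0.24) of 11 against nonsense siRNA. Of the 9 fits that dropped 1 array, 6 did not call FGA (adjusted p up to 0.188, without nonsense siRNA replicate 3) and 3 did not call AHSG (without YAP siRNA replicate 1 or 2 or nonsense siRNA replicate 1). Against untreated cells FGA was at -0.06 (adjusted p = 0.666) and AHSG at 0.24 (adjusted p = 0.0561), and AHSG passed there with array weights (0.00436). With those weights 1759 of all genes passed there, against 569 without them. The markers' summed linear signal ran from 22160 to 23900 after YAP siRNA, from 22300 to 24730 after nonsense siRNA and from 22190 to 22480 in untreated cells.

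Of 11 cadherin and catenin adhesion genes, CDH17, which encodes an intestinal and liver cadherin, rose by 0.31 against nonsense siRNA (SE 0.0543, adjusted p = 0.00329) and by 0.39 against untreated cells (adjusted p = 0.000767). It measured 8.94, 8.97 and 8.83 after YAP siRNA, against 8.64, 8.56 and 8.61 after nonsense siRNA and 8.54, 8.55 and 8.48 in untreated cells, so the YAP siRNA arrays lay above all 6 control arrays. PKP4, which encodes a plaque protein related to p120-catenin, fell by 0.25 against nonsense siRNA (adjusted p = 0.00868) and did not pass against untreated cells (-0.14, adjusted p = 0.167). CDH1, the E-cadherin gene, was at 0.12 against nonsense siRNA (adjusted p = 0.212). With array weights CDH1 passed against nonsense siRNA (0.14, adjusted p = 0.0348) and PKP4 passed against untreated cells (-0.15, adjusted p = 0.0442). Array weights raised the genes passing from 834 to 2404 against nonsense siRNA and from 569 to 1759 against untreated cells. Among 7 fibroblast or stellate markers COL1A2 rose by 0.43 against nonsense siRNA (adjusted p = 0.000538) and did not pass against untreated cells (0.22, adjusted p = 0.0710). With array weights COL1A2 passed there (adjusted p = 0.0476), where 1759 of all genes did. The summed linear signal of the list ran from 1204 to 1279 after YAP siRNA, from 1090 to 1147 after nonsense siRNA and from 1220 to 1247 in untreated cells. The part of these markers in the results was not tested.

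**Figure D4:**
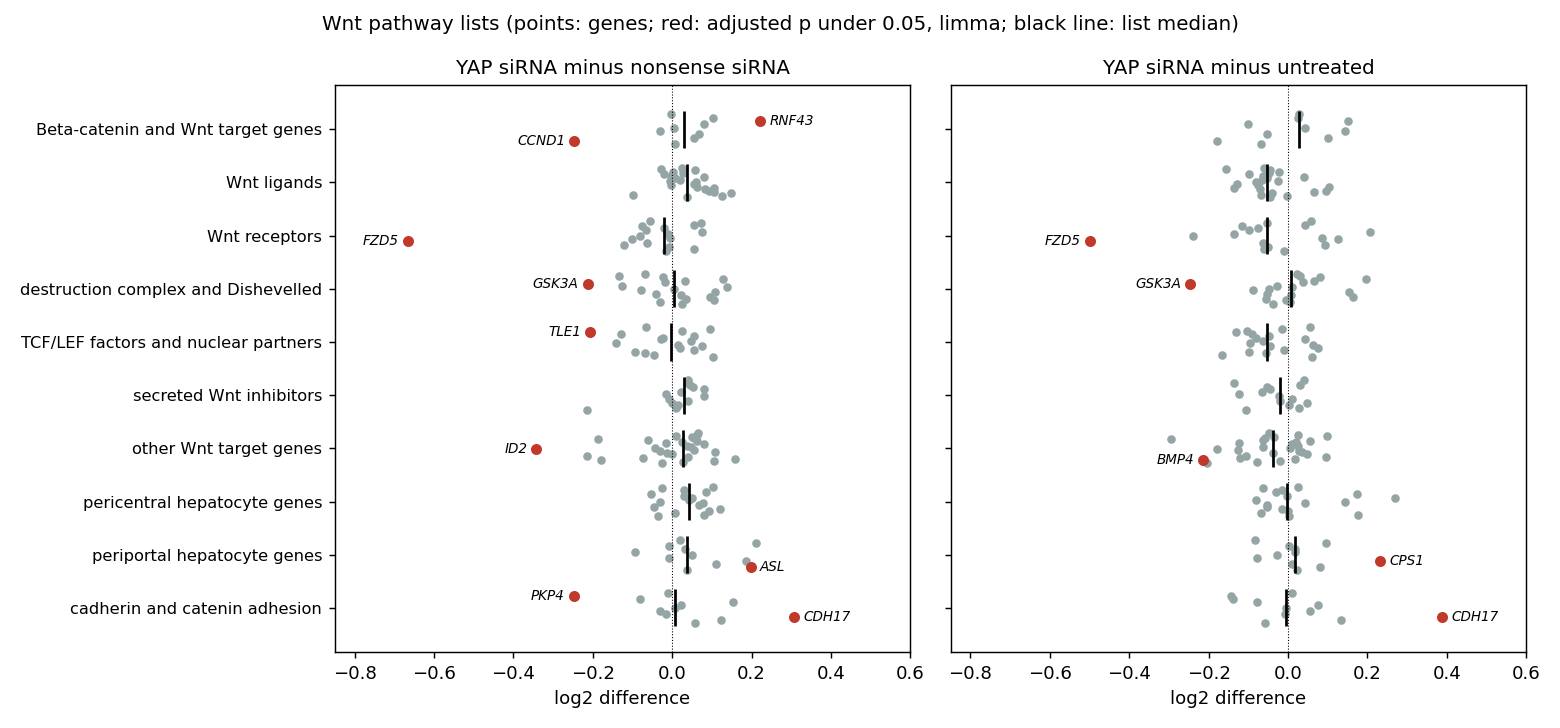
Log2 differences of the genes of each list (horizontal axes) for YAP siRNA minus nonsense siRNA (left) and YAP siRNA minus untreated (right); points are genes, red points with names had an adjusted p under 0.05, and black lines are list medians. FZD5 (-0.67 and -0.50) lies far left of the other receptor genes in both panels, while list medians stay between -0.05 and 0.04.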

How the data were processed

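Total RNA of 9 samples was measured on Affymetrix gene arrays after biotinylated cRNA was made, per the labels. The values are log2 signals that the authors deposited, a unit read from the span of the values. Their background correction, summary of probes and normalization are stated in no header or label. No further scaling was applied. Groups came from the sample titles.

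Of 33297 probe sets, 19460 had 1 gene in the supplied annotation, 1754 had several and 12083 were not listed. Symbols were checked against RefSeq through 19429 matched gene IDs, with 0 changed. The 18417 genes were each read at the probe set with the highest mean. The tests used limma 3.58.1 (R 4.3.3) with a mean for each group over all 9 arrays and eBayes (9.29 prior degrees of freedom), two-sided, with Benjamini-Hochberg adjustment over all genes; SE and 95% intervals are those of the fit. The fit was also run on simulated data with independent noise for each gene and array. Those data lack the variation that genes share within an array, so that run cannot gauge its effect. Named genes were the 10 members, YAP1, 12 further genes given whatever their result (TCF7 had no probe set of its own), up to 4 passing genes per list and comparison, and the 5 genes most correlated with CTNNB1 and AXIN2.

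Members and lists were chosen with earlier results of these data known. Alternatives were other scalings, filters, probe set rules, variance models, array weights, fewer arrays, a stricter threshold, the replicate block and leaving out each array. Sequences are from RefSeq, GRCh38.p14. The search left MYC out, and windows were read for 3 of the 10 genes. Figures used Python 3.11.15 and matplotlib 3.10.9.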

Additional observations from a re-analysis of the deposited data

How the results depend on the processing

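The 30 differences of the 10 genes were recomputed under up to 19 alternatives, which gave 564 values. Of these 532 kept their direction and side of the threshold, 9 lost a call, 5 gained one and 18 changed sign; of the 36 differences of other named genes 571 of 679 values stayed, 76 lost a call, 17 gained one and 15 changed sign. The differences that changed sign had adjusted p of at least 0.66 with the settings as reported and of at least 0.751 under those alternatives, and the cause of these shifts was not tested. With quantile normalization ZNRF3 (0.0128) and GSK3B (0.0193) changed sign in YAP siRNA minus nonsense siRNA and CTNNB1 in nonsense siRNA minus untreated (-0.0176). With equal array medians AXIN2 (-0.00219) and MYC (-0.0059) did so in the first and YAP1 (0.0229) in the last, and with array weights NOTUM (0.0119) did in the first. With 3 arrays left out (YAP siRNA 3, nonsense siRNA 2, untreated 3) CTNNB1 (-0.00652), AXIN2 (-0.00572), LGR5 (0.0417), ZNRF3 (0.0101), MYC (-0.00386), AXIN1 (-0.0198) and SP5 (-0.0101) changed sign in YAP siRNA minus nonsense siRNA. With 1 array left out the ranges there were -0.092 to 0.035 for APC, -0.028 to 0.035 for AXIN2, -0.00486 to 0.107 for CTNNB1, -0.062 to 0.022 for GSK3B, -0.096 to 0.051 for LGR5, -0.015 to 0.016 for MYC, -0.067 to 0.056 for NOTUM, -0.045 to 0.140 for SP5 and -0.017 to 0.016 for ZNRF3, and in nonsense siRNA minus untreated -0.00598 to 0.106 for CTNNB1 and -0.039 to 0.037 for YAP1. Of the 10 genes, those that passed in YAP siRNA minus nonsense siRNA numbered 1 with quantile normalization and 0 with all probe sets tested or at an adjusted p under 0.01, and 0 to 2 with 1 array left out. With array weights 1 passed in YAP siRNA minus untreated and 2 in nonsense siRNA minus untreated, where 1 passed without the 3 arrays and 0 to 1 with 1 array left out. Over all genes 834, 569 and 113 passed in YAP siRNA minus nonsense siRNA, YAP siRNA minus untreated and nonsense siRNA minus untreated. The counts were 396, 250 and 11 at an adjusted p under 0.01, 424, 205 and 0 with all probe sets tested (by limma, in the last, with 4645 of 33297 at an unadjusted p under 0.05), 2404, 1759 and 2620 with array weights, 1287, 1560 and 2319 without the 3 arrays, and ran from 426 to 1231, 279 to 775 and 11 to 1470 with 1 array left out (lowest without nonsense siRNA 1, YAP siRNA 2 and nonsense siRNA 1, highest without nonsense siRNA 2, YAP siRNA 3 and nonsense siRNA 2). In nonsense siRNA minus untreated 67 passed with only its 6 arrays and 65 with the replicate block. Whether the replicate numbers pair the samples was left unsettled. Deviations of same-numbered arrays correlated at -0.34 to 0.34 with 3 of 9 pairs above 0.1, and 5 of 9 arrays correlated best with their own number. With the block CCND1 (adjusted p = 0.0210) and RNF43 (0.0356) still passed, while GSK3A (0.0538), ASL (0.0506) and FGA (0.0588) no longer passed in YAP siRNA minus nonsense siRNA and BMP4 (0.0557) no longer in YAP siRNA minus untreated, where AHSG passed (0.0469). Quantile normalization gave 460 higher and 408 lower genes in YAP siRNA minus nonsense siRNA, against 354 and 480, and equal array medians 54 and 23 in nonsense siRNA minus untreated, against 62 and 51, where quantile normalization gave 70 and 79.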
